A study of Caenorhabditis elegans with 5 samples.

Results

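The C. elegans homeobox genes unc-30, ceh-37, nsy-7 and dve-1 are the closest genes of regions where LIN-42, the worm homolog of the clock protein PERIOD, was found on chromatin. The 4 genes and their 4 regions were taken from the annotated list of high-confidence regions that accompanies the data, whose 412 entries name 338 closest genes in all. Some regions are entered repeatedly, so that 404 are distinct, and shares and medians are given over the entries. Each region was defined by a peak in both LIN-42::GFP lists, so the members were chosen from the same measurements that are given here, and the presence of these peaks is a description with no test. Of 104 named homeobox genes, 4 (3.85%) were the closest gene of a region and 100 were not. The background for this count was 1.34% of 19983 protein-coding genes, and since the choice of members used it nothing is read from it.

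The series holds 5 samples of the strain HML214, which carries the GFP tag and was grown at 20°C to the late L4 stage. LIN-42::GFP replicates 1 and 2 were immunoprecipitated with an anti-GFP antibody (abcam 290), and 1 further ChIP, with no replicate, used an anti LIN-42 antibody (KEA/11 Rabbit 2) on the tagged strain and is called endogenous LIN-42 here. That antibody was raised to a peptide found in the LIN-42A and LIN-42B isoforms, and extracts were of whole animals, so no tissue is resolved. The 2 input samples, which had no antibody, enter only as controls of the caller. Chromatin immunoprecipitation with sequencing (ChIP-seq) counts the DNA fragments recovered with a protein, and a peak is a stretch where they pile up. After redundant tags were removed by the authors, 38236 and 43991 tags were left for LIN-42::GFP replicates 1 and 2 and 122089 for endogenous LIN-42, from which 946, 2580 and 1128 peaks had been called. The aligned tags before this step were 833169, 4334100 and 2268716 in the same order, and between 95% and 99% of them were counted as redundant. With so few tags left the smallest listed peaks hold 4 tags for LIN-42::GFP and 5 for endogenous LIN-42. Where no peak is listed, none passed the threshold of the authors' peak calling, and the signal there was not examined.

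Homeobox genes encode transcription factors that bind DNA through a homeodomain and often fix the identity of a cell. In the worm nervous system, single homeobox genes act as selectors of the neurotransmitter or receptor genes of a neuron type. LIN-42 is a nuclear protein whose level rises and falls with each molt, and its homologs in flies and mammals restrain transcription in the circadian clock. UNC-30, of the Pitx family, specifies the GABAergic D-type motor neurons and activates the GABA synthesis and transport genes unc-25 and unc-47. CEH-37, of the Otx family, acts in the AWB olfactory neurons and also binds telomeric DNA. NSY-7 maintains the difference between the left and right AWC olfactory neurons. DVE-1, related to the SATB chromatin proteins, acts in the unfolded protein response of mitochondria.

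All 4 regions had a peak in each of the 3 lists, against 77.2% of the 412 entries. The annotated list carries a mark for an endogenous peak and was known when the members were chosen, so this count does not stand as a separate result. Some marked regions overlap no peak of the endogenous list. The study's text counts more regions shared with that ChIP than the 318 found here. The unc-30 and nsy-7 regions lie on chromosome IV, and the dve-1 and ceh-37 regions on chromosome X. The 3 regions at unc-30, nsy-7 and dve-1 were in the class of coding gene promoters, which held 32.8% of the annotated regions. The ceh-37 region was in the class downstream of coding genes, which held 26%. A region is the union of the replicate 1 and replicate 2 peaks at each of the 4 genes, and each list had 1 peak in it. All coordinates are those of ce10.

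At unc-30, the region spans chrIV:13115763-13116337 and lies 2735 bp from the gene and 3023 bp from its start site. The annotated list puts it in the promoter class, although this is further than the upstream distance by which the study's text defines promoters. The peak held 41 tags in replicate 1 of LIN-42::GFP, 7 in replicate 2 and 86 in the endogenous library. The counting intervals of the 2 LIN-42::GFP replicates do not overlap. They run from 29.4 to 55.6 tags in replicate 1 and from 2.81 to 14.4 in replicate 2. They are 95% exact Poisson intervals, which cover counting error only and take no account of the single tag kept per position. The 2 counts also come from peaks of 507 bp and 312 bp that share 244 bp, so they are not counts over the same stretch. Per 10000 filtered tags of its library, the peak held 10.7 tags in replicate 1, 1.59 in replicate 2 and 7.04 in the endogenous library, so that replicate 2 stood below both other libraries. In replicate 1 and in the endogenous list unc-30 held the most tags of the 4 genes, and in replicate 2 the fewest. The peaks were also the widest of the 4 in replicate 1 and in the endogenous list, at 507 bp and 1133 bp, while that of replicate 2 measured 312 bp. In tags per 100 bp of peak, unc-30 had 8.09 in replicate 1, 2.24 in replicate 2 and 7.59 in the endogenous library, the lowest density of the 4 genes in each of these lists.

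At ceh-37, the region spans chrX:14192990-14193353, 3940 bp from the gene and 15913 bp from its start site. The peak held 19 tags in replicate 1 of LIN-42::GFP (interval 11.4 to 29.7), 23 in replicate 2 (14.6 to 34.5) and 20 in the endogenous library (12.2 to 30.9). The counts of the 3 libraries lie within each other's intervals, although the endogenous library had the most filtered tags. Per 10000 filtered tags they came to 4.97, 5.23 and 1.64 in the same order, and the endogenous interval, which ends at 2.53, lies below both LIN-42::GFP intervals. In the WBcel235 gene table of RefSeq the neighboring protein-coding genes are ceh-36, the Otx gene of the AWC and ASE neurons, and kola-4. On which side of ceh-37 each of them lies relative to the region was not tested, since no ce10 gene models were used.

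At nsy-7, the region spans chrIV:8087636-8087826, 1059 bp from the gene and 1092 bp from its start site, the shortest distance among the 4 genes. The peak held 22 tags in replicate 1 of LIN-42::GFP (interval 13.8 to 33.3), 19 in replicate 2 (11.4 to 29.7) and 17 in the endogenous library (9.90 to 27.2). The 3 intervals overlap, and the peaks measured 129, 191 and 116 bp in that order. Per 10000 filtered tags the peak held 5.75 tags in replicate 1, 4.32 in replicate 2 and 1.39 in the endogenous library, where the interval ends at 2.23, below those of both replicates. In the RefSeq table nsy-7 overlaps sax-7, an adhesion molecule gene of the nervous system, and is followed by Y42H9AR.2.

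At dve-1, the region spans chrX:430874-431022 and lies 1421 bp from both the gene and its start site. The peak held 26 tags in replicate 1 of LIN-42::GFP (interval 16.98 to 38.1), 25 in replicate 2 (16.2 to 36.9) and 30 in the endogenous library (20.2 to 42.8). It was the most compact of the 4 in the sense of tags per 100 bp of peak, at 17.4, 17.9 and 24.4, with widths of 149, 140 and 123 bp. Per 10000 filtered tags it held 6.80, 5.68 and 2.46 tags in the same order, and the endogenous interval, which ends at 3.51, again lies below both others. The protein-coding gene next to dve-1 on one side in the RefSeq table is col-19, a collagen gene switched on in adults, and on the other it is F52D1.2.

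In order of tags, LIN-42::GFP replicate 1 gave unc-30, dve-1, nsy-7 and ceh-37, replicate 2 gave dve-1, ceh-37, nsy-7 and unc-30, and endogenous LIN-42 gave unc-30, dve-1, ceh-37 and nsy-7. The intervals of dve-1, nsy-7 and ceh-37 overlap in every library, so their order among themselves is within counting error. Relative to filtered tags, the endogenous level of these 3 genes was the lowest of their 3 libraries, as it was for 74.5% of the 318 entries with a peak in all 3 lists. The median over the 4 peaks was 24 tags in replicate 1, 21 in replicate 2 and 25 in the endogenous list. Over the 318 regions with a peak in all 3 lists the medians were 13, 13 and 17 tags, and over each whole list they were 6, 5 and 7 tags.

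**Figure D1:**
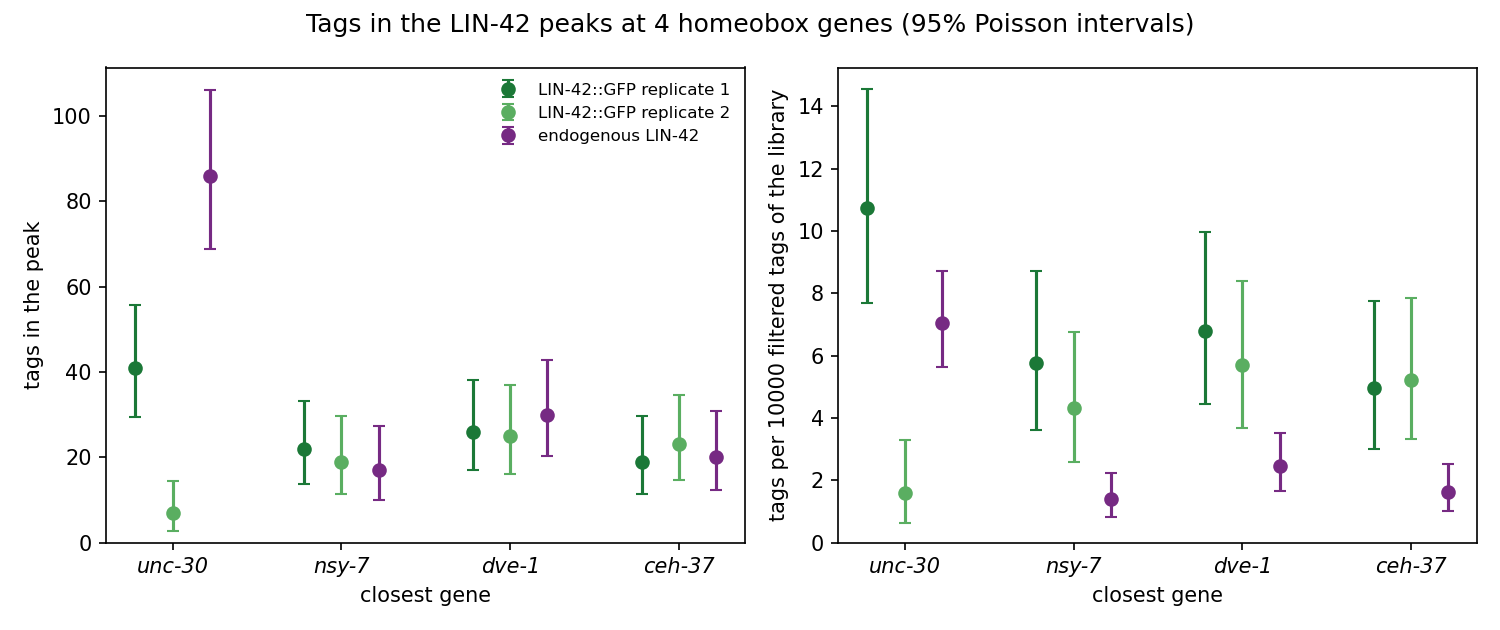
Tags in the peak at each homeobox gene (left, tags; right, tags per 10000 filtered tags of the library) in LIN-42::GFP replicate 1, LIN-42::GFP replicate 2 and endogenous LIN-42; points are the deposited counts and bars are 95% exact Poisson intervals. At unc-30 the points stand at 41, 7 and 86 tags, while at nsy-7, dve-1 and ceh-37 all points lie between 17 and 30 tags. The peaks of a gene differ in extent between lists.

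The fold enrichment, which is the pile of tags at the summit over the background that MACS estimated, ranked the same peaks differently from their tags, and it is compared only within a list. For dve-1 it was 630.92 in the first LIN-42::GFP list (rank 9 of 946), 50.51 in that of replicate 2 (rank 2143 of 2580) and 99.21 for endogenous LIN-42 (rank 15 of 1128). Thus dve-1 was near the top of 2 lists and in the lower part of the other, although it had 26, 25 and 30 tags. Among the 66 replicate 2 peaks with 20 to 30 tags the fold ranged between 7.65 and 475.3 with a median of 67.43, and 27 of these peaks had a lower fold than dve-1. In replicate 1, none of the 4 peaks with 26 tags had a higher fold than dve-1.

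For unc-30 the fold was 352.28 in replicate 1 (rank 63), 14.3 in replicate 2 (rank 2555) and 38.44 in the endogenous library (rank 491). The replicate 2 value was the lowest of the 146 peaks with 7 tags in that list, whose median was 104.92. Its MACS score, which is 10 times the negative log10 of the p-value, was 53.82 where the list starts at 50.23, against scores of 701.33 in replicate 1 and 468.15 in the endogenous list. The replicate 2 peak of unc-30 is therefore close to the limit of its list, and the region rests on it for its place among the shared ones.

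For ceh-37 the fold was 461.05 in replicate 1 (rank 31), 314.75 in replicate 2 (rank 14) and 72.15 in the endogenous library (rank 99). Of the 4 genes, ceh-37 had the highest fold in replicate 2 and the second highest in replicate 1. For nsy-7 the fold was 402.0 in replicate 1 (rank 47), 202.02 in replicate 2 (rank 46) and 61.33 in the endogenous library (rank 161). In each list, the folds of ceh-37 and nsy-7 were above those of at least 85.6% of the peaks. The members had to be shared peaks, so a rank in a whole list is raised by their choice. Among the 318 regions with a peak in all 3 lists, the endogenous fold exceeded that of 62.6% at nsy-7 and 73.6% at ceh-37. In both LIN-42::GFP lists, the folds of the 2 genes were above those of at least 85.8% of these regions. The MACS false discovery rate in replicate 2 was 0.24% for unc-30, 1.39% for ceh-37, 1.52% for dve-1 and 1.85% for nsy-7, and 0% for the 4 peaks of replicate 1. In replicate 2 the rate did not follow the score, since unc-30 had the lowest rate and also the lowest score of the 4 genes (53.82, against 421.49 for dve-1). The endogenous list has no such rate.

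The median fold over the 4 genes was 431.5 in replicate 1, against 145.6 for the 318 regions found in all 3 lists and 97.06 for the whole list. With endogenous LIN-42 these values were 66.74, 50.3 and 35.1. In replicate 2 the median over the 4 genes was 126.3, that of the 318 regions 63.3 and that of the whole list 82.66. The 126.3 describes none of the 4 genes. In replicate 2, unc-30 (14.3) and dve-1 (50.51) were below both other medians, and nsy-7 (202.02) and ceh-37 (314.75) above both. In that list the regions found by all 3 ChIPs had more tags than the list as a whole but a lower median fold.

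**Figure D2:**
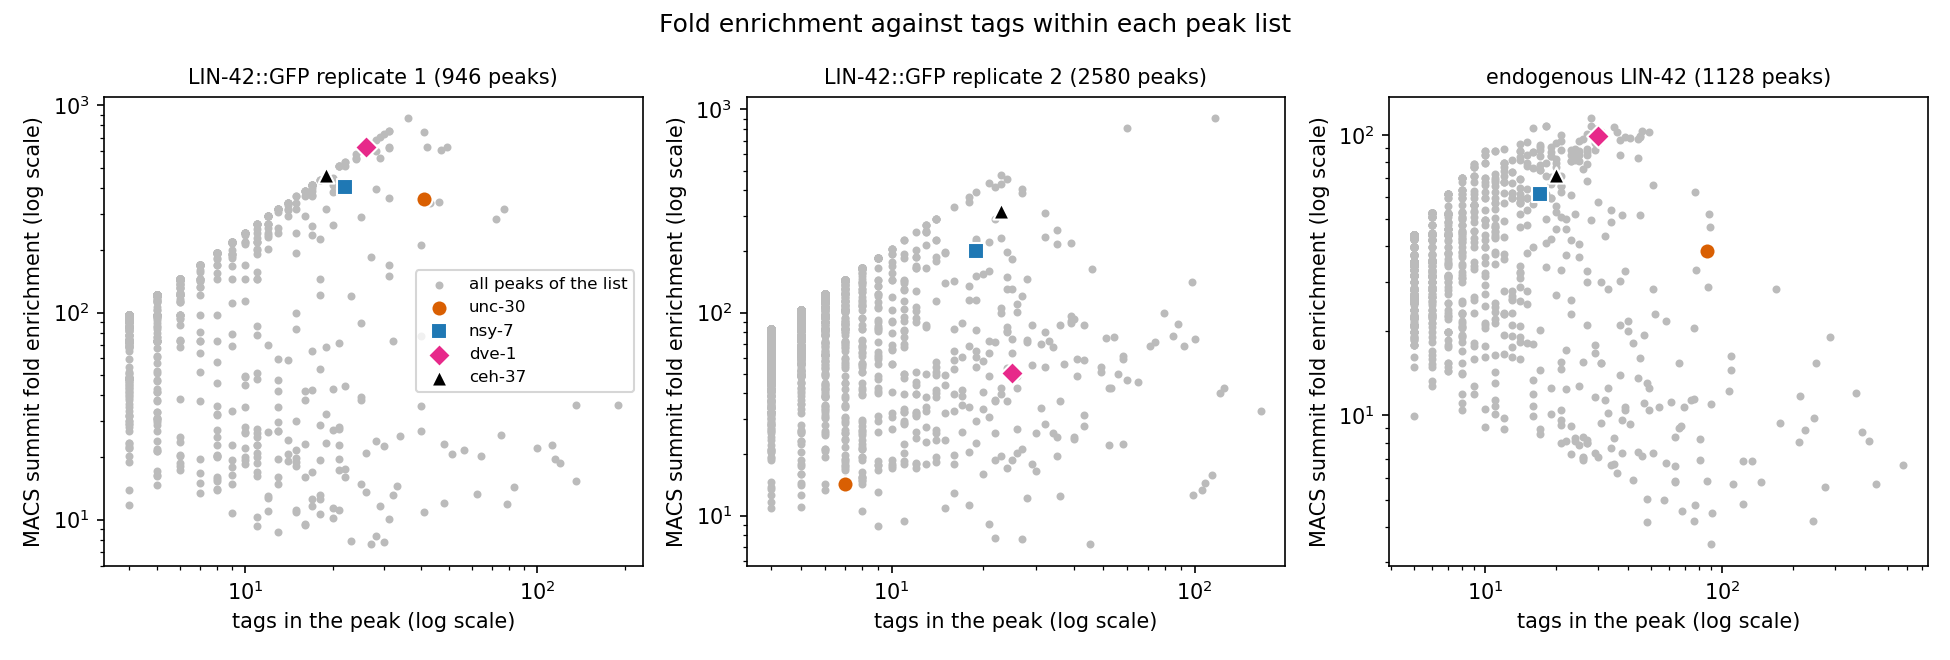
MACS summit fold enrichment against tags in the peak, both on log axes, for every peak of LIN-42::GFP replicate 1 (946 peaks), LIN-42::GFP replicate 2 (2580 peaks) and endogenous LIN-42 (1128 peaks), in grey, with unc-30, nsy-7, dve-1 and ceh-37 marked. In replicate 2, dve-1 (25 tags, fold 50.51) and unc-30 (7 tags, fold 14.3) lie below ceh-37 (23 tags, fold 314.75), while in replicate 1 dve-1 has the highest fold of the 4 genes.

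At 3 of the 4 genes the summits of the 3 lists lay within 31 bp of each other. This limit is the largest distance among these 3 genes, that of the replicates at nsy-7. Of the 318 regions with a peak in all 3 lists, 73.3% had LIN-42::GFP summits closer than that, so such closeness is not particular to these genes. At dve-1, the replicate 2 summit lay 5 bp and the endogenous summit 2 bp from that of replicate 1. At nsy-7 these distances were 31 bp and 7 bp, and at ceh-37 they were 23 bp and 27 bp. At ceh-37 the replicate 2 and endogenous summits were 4 bp apart, although the replicate 2 peak was 331 bp wide and only 43.5% of it was covered by the replicate 1 peak.

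At unc-30 the endogenous summit lay 29 bp from that of replicate 1, whereas the replicate 2 summit lay 342 bp away. The peaks of replicates 1 and 2 overlapped by 244 bp, which is 48.1% of the replicate 1 peak, and the endogenous peak covered both of them whole. Among the 318 regions in all 3 lists, 9.75% had LIN-42::GFP summits over 200 bp apart, and the median distance was 9 bp. The distance between these summits exceeded that of 93.4% of these regions at unc-30, 73.3% at nsy-7, 70.1% at ceh-37 and 33.6% at dve-1. The distances at unc-30, nsy-7 and ceh-37 are above the median of the shared regions. A median has about as many regions above it as below, so nothing about the 4 genes is read from this.

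**Figure D3:**
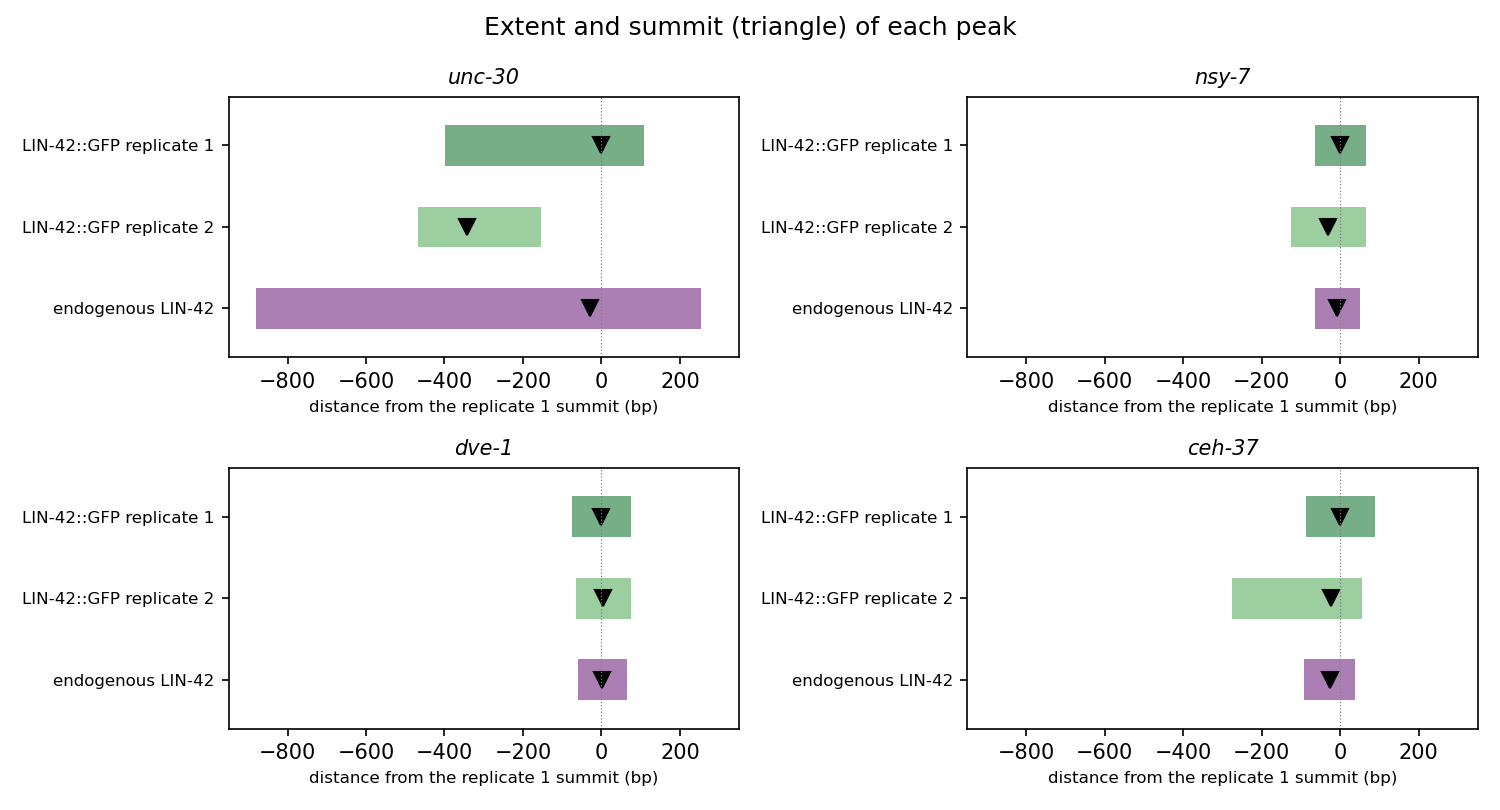
Extent (bars) and summit (triangles) of the peak at each homeobox gene in the 3 lists, in bp from the summit of LIN-42::GFP replicate 1. At unc-30 the replicate 2 summit lies 342 bp to the left and the endogenous peak is 1133 bp wide, while at dve-1 the 3 summits lie within 5 bp.

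None of the 4 regions had another annotated region within 20 kb, as for 58.7% of the annotated regions, and the nearest one lay between 135614 bp away (R57.2, for dve-1) and 397380 bp away (ZK1086.2, for ceh-37). Around unc-30, dve-1 and ceh-37 no list had any other peak within 20 kb, which held for 14.1% of the annotated regions. The nsy-7 region was the exception. A replicate 2 peak with 4 tags lay 13767 bp from it (chrIV:8101594-8101704, fold 72.5), and a replicate 1 peak with 4 tags lay 19209 bp from it (chrIV:8107036-8107297, fold 72.8). Both are at the smallest number of tags in their lists, and neither was found in another list. The second is also the peak nearest to the limit of 20 kb from within.

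Beyond 20 kb, the first peak outside the limit was a replicate 2 peak of 6 tags at 34158 bp from the unc-30 region. From the ceh-37 region, a replicate 2 peak (4 tags) lay 36033 bp away and an endogenous peak (12 tags) that overlaps it 36031 bp away, with no replicate 1 peak at it. In replicate 1 the nearest other peak lay 212280 bp from the unc-30 region and 238294 bp from the ceh-37 region.

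**Figure D4:**
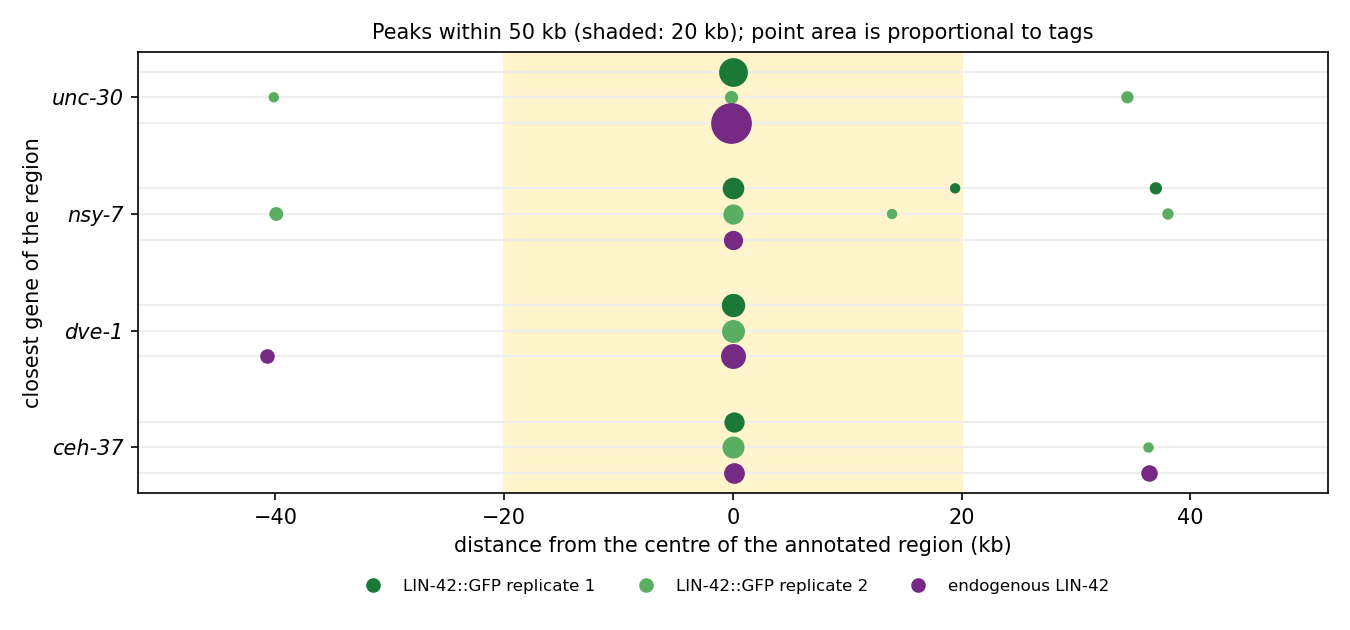
Peaks of the 3 lists within 50 kb of each region, in kb from its centre, with the 20 kb window shaded and point areas proportional to tags. Only nsy-7 has further peaks in the shaded window, each with 4 tags and in a single list.

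Genes known to act with these 4 factors were also looked up among the closest genes, against the background of 1.34% of protein-coding genes. None of 3 genes expressed under UNC-30 (unc-25, unc-47, unc-46), of 4 relatives or targets of CEH-37 (ceh-36, ttx-1, lim-4, str-1) or of 5 genes of the AWC asymmetry pathway (nsy-1, nsy-4, inx-19, str-2, srsx-3) was one. Of 7 genes of the mitochondrial unfolded protein response that act with DVE-1 (ubl-5, atfs-1, hsp-6, hsp-60, clpp-1, lin-65, met-2), lin-65 was one, and the other 6 were not. Lists this short would hold few or no such genes at the background share, so nothing about these genes is read from the counts. LIN-65 is a nuclear protein that is needed for DVE-1 to gather in the nucleus under mitochondrial stress. Its region, chrI:1766620-1766768 in the class downstream of coding genes, lies 155 bp from the gene and 11362 bp from the start site. It held 25 tags in replicate 1 of LIN-42::GFP, 26 in replicate 2 and 24 in the endogenous library. Its fold ranks were 99, 2197 and 53 in the same order. A replicate 2 fold below the median of that list was found at lin-65, dve-1 and unc-30. This held for 61.6% of the 318 entries with a peak in all 3 lists. These lists were written with the annotated regions known, and a gene without a region may still have a peak that was not shared or not detected.

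Of the other 317 regions with a peak in all 3 lists, those with the most similar tag counts were sought by the Euclidean distance of log2 tags over the 3 libraries. For dve-1 these were an intron of C41G7.7 (25 tags in replicate 1, 25 in replicate 2 and 29 in the endogenous library, distance 0.07) and the non-coding transcript C23H5.10 (25, 26 and 28 tags, distance 0.13). For nsy-7 they were Y60A3A.21 (21, 19 and 18 tags, distance 0.11) and K07F5.15 (22, 19 and 19 tags, distance 0.16), both downstream of the gene. For ceh-37 they were Y110A2AL.9 (17, 23 and 20 tags, distance 0.16) and Y116A8C.13 (20, 21 and 21 tags, distance 0.17). For unc-30 no region came as close. The nearest were pes-10 (33, 9 and 90 tags, distance 0.48) and an intron of puf-4, a gene of the Pumilio family (40, 8 and 63 tags, distance 0.49). The closest pair among the 4 homeobox genes themselves was 0.42 apart.

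Likeness in tags went with like folds in some libraries and not in others. For dve-1, with a fold of 630.92 in replicate 1, C41G7.7 and C23H5.10 both had 606.65, and in the endogenous list they had 93.31 and 107.53, where dve-1 had 99.21. In replicate 2 they had 74.43 and 109.55 (ranks 1624 and 340), both above the 50.51 of dve-1. For nsy-7, Y60A3A.21 and K07F5.15 had folds of 151.78 and 224.36 in replicate 2, on either side of the 202.02 of nsy-7, while in replicate 1 (509.59 and 532.38) and in the endogenous list (107.14 and 83.77) both were above it.

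For ceh-37, Y110A2AL.9 and Y116A8C.13 both had 412.52 in replicate 1, where ceh-37 had 461.05. In replicate 2 they had 104.8 and 160.6, below the 314.75 of ceh-37, and in the endogenous list 93.17 and 51.02, on either side of its 72.15. For unc-30, whose matches in tags were the least close, pes-10 and puf-4 had folds of 14.49 and 35.22 in replicate 1, where unc-30 had 352.28, and 60.62 and 25.41 in replicate 2, where it had 14.3.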

How the data were processed

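Peaks were read from the lists that the authors deposited. They had aligned reads of 76 nucleotides to ce10 with Bowtie2, kept uniquely aligned reads and called peaks library by library with MACS (1.4.2 per the file headers) at a p-value of 1e-05. The list headers name Input2 as control of LIN-42::GFP replicate 1 and Input3 for replicate 2, whereas the labels number the inputs 1 and 2. The methods describe calling against input, but the header of the endogenous list names no control. Tags are deposited counts in the peak, not normalized, with a single tag kept per position. The deposited score, whose column title was damaged, was read as the form MACS writes, the negative log10 of a p-value times 10. The deposited fold enrichment is the ratio of tags at the summit to the MACS background, from input and library for LIN-42::GFP and from the library alone for endogenous LIN-42. The false discovery rate in percent is the authors' and is in the LIN-42::GFP lists.

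Regions, their classes and distances came from the annotated list of 412 entries (404 distinct regions; the study's text counts 1 more entry, which was not analysed here), whose starts count from 0 and were moved to 1-based. Peaks overlapping a region by at least 1 bp, or within 20 kb, were taken. Ranks run from the highest value, ties taking the best rank. Tag intervals are 95% exact Poisson intervals on the deposited counts, and the peaks they come from differ in extent between lists. The named genes are the 4 members, genes of annotated regions within 20 kb, the 2 regions most alike in tags for each member, and genes of 5 lists with a region. The members and lists were chosen with earlier results of these data known. No test was run, since the members came from the same lists. The overlap and distance steps were tested on simulated data. Symbols of all 104 homeobox genes matched the RefSeq table (WBcel235), used for names and gene order. Alternatives changed the overlap, the thresholds, the window, the ranking, the summits and the replicates used. Reads, signal, input libraries and genome sequence were not used here. Computation used SciPy 1.17.1, pandas 2.3.3 and NumPy 2.4.6 under Python 3.11.15, and figures Matplotlib 3.10.9.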

Additional observations from a re-analysis of the deposited data

How the results depend on the processing

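Of the 4 homeobox genes, 2 (nsy-7 and dve-1) were found in all 3 lists when each peak had to share 50% of both peaks with that of LIN-42::GFP replicate 1, which unc-30 and ceh-37 did not. With summits within 200 bp, with a MACS p-value of 1e-10 or less, or with 10 or more tags in each list, 3 were left, and unc-30 was lost each time, through its replicate 2 peak. Of the 412 annotated entries, 52.9% passed this p-value and 41% this number of tags in every list. For the overlap of 50% and for the summit limit no share over the 412 entries was computed. Of the 318 entries with a peak in all 3 lists, 9.75% had LIN-42::GFP summits over 200 bp apart. Nothing about the members is read from these counts. At a false discovery rate of 5% or less, which did not follow the score in replicate 2, the count was 4. It was also 4 without replicate 1 and 4 without replicate 2, which follows from the construction and says nothing on stability. The 2 other peaks within 20 kb became 0 within 10 kb, 10 within 50 kb and 1 at a p-value of 1e-10 or less. Ranks by tags differed from ranks by fold by over 1.5 times for 11 of 12 peaks, and ranks by MACS score for 10 of 12. By score, dve-1 ranked 66 and unc-30 2553 in replicate 2. Midpoints in place of summits moved 5 of 12 offsets by over 1.5 times, that of unc-30 between the replicates to 165.5 bp. Counting each distinct region a single time, an alternative chosen after seeing the data, moved the shares over annotated regions by at most 1.7 percentage points, and the median replicate 1 fold of those in all 3 lists to 169.4. No paired analysis was possible because no result comes from a test. Few tags per peak limit all counts, and no sequence was examined.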
